A study of Homo sapiens with 8 samples.

Results

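Ribosome footprints on the mRNAs that encode the cell's own mRNA decay machinery were examined in OVCAR3, an ovarian carcinoma cell line of human origin. The group held 56 genes out of 20165 gene regions in the files. They were taken by name for their roles in decapping, deadenylation, 5′ to 3′ decay, the exosome, nonsense-mediated decay and 3′ tail control. The group was chosen by the footprint counts of DCP2, which were known to be higher in siTARG1 than in siControl libraries, that is after knockdown of TARG1. A region of its own was found for 52 genes. EXOSC3 shares a region with neighbouring genes, so its counts cannot be assigned to it alone. That region is included where 53 genes are said to be tested. The 3 genes of the ZFP36 family (ZFP36, ZFP36L1 and ZFP36L2) had under 30 nt of coding sequence in the deposited regions and could not be measured.

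In ribosome profiling (Ribo-seq), mRNA fragments that translating ribosomes shield from nuclease are sequenced, and 8 such libraries formed 4 groups of 2. In the siRNA experiment, cells were transfected with 30 nM siRNA, which either was a control (siControl) or targeted OARD1 (siTARG1). OARD1 encodes TARG1, a hydrolase that removes ADP-ribose from proteins. In the RACK1 experiment, stably transduced cells were given 1 µg/ml doxycycline, which both knocked down endogenous RACK1 by shRNA and induced HA-tagged RACK1, either wild type (RACK1-WT) or mutated at its acceptor sites for mono-ADP-ribose (RACK1-Mut). All RACK1 libraries thus share the knockdown, and the re-expressed protein, made from a lentiviral vector, is the labelled difference. All cells were harvested 48 h after transfection or doxycycline. The study's methods describe its sequencing experiments as repeated with independent biological samples, while the labels give only replicate numbers. The p-values rest on the spread between these libraries, which the tests estimate by sharing information across genes. They thus do not measure each gene's own spread alone. The methods list a pair of siRNAs against TARG1, and which of them was used for Ribo-seq is not given in the sources used here.

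Coding sequence counts summed to between 3100947 and 6604190 per library. Coding counts of OARD1 itself were 138 and 58 with control siRNA, 7 and 6 in siTARG1 cells and 83 to 161 in the RACK1 libraries. All 9 epithelial and ovarian marker genes had footprints in every library (summed footprint density 4231 to 7197, with the largest parts from KRT8 and KRT18). The lowest was WT1 in siTARG1 cells, at 11.9 and 14.9, below the median gene there (21.6). In contrast, 4 leukocyte markers summed to 1.26 to 7.26. Both endothelial markers with a region summed to 0.0753 to 0.338, 3 fibroblast markers to 5.59 to 9.26 and 2 hepatocyte markers to 0 to 0.403.

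Most cytoplasmic mRNAs are degraded after their poly(A) tail has been shortened, first by PAN2-PAN3 and then by the CCR4-NOT complex. The bare 3′ end is bound by the LSM1-7 ring, which helps to recruit the decapping enzyme DCP2 with its activators, and XRN1 then digests the body of the mRNA from its 5′ end. The exosome degrades RNA from the 3′ end instead, and the UPF and SMG proteins carry out nonsense-mediated decay (NMD), which removes mRNAs with early stop codons. Much of this machinery is found in P-bodies, and DDX6 is among the proteins that link it to repression of translation.

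Levels were compared between genes as footprint density, that is coding footprints per 1000 nt of coding sequence in a library scaled to 1000000 coding footprints. This density depends on the amount of an mRNA and on its load of ribosomes, which were not separated here. The median density of the 52 measurable genes was 35.1 in siControl cells, 40.0 in siTARG1 cells, 27.0 in RACK1-WT cells and 28.0 in RACK1-Mut cells. Over 11205 genes with at least 80 coding counts summed over the libraries, the same medians were 20.1, 21.6, 20.7 and 21.3. The median decay gene thus lay above the median gene in all 4 groups, but this did not hold for every role. The medians of the NMD genes, the deadenylases outside CCR4-NOT and the exosome nucleases lay below that of all genes in every group. In siControl cells they were 14.04, 9.63 and 10.1. Above it there were the LSM ring (130), the exosome ring and cap (51.3) and CCR4-NOT (36.1). Decapping, at 20.5, was close to it. For the 5′ to 3′ exonucleases, a role of 2 genes, the median was 32.1. Of these, XRN1 (12.2) lay below the median of all genes and XRN2 (52.02) above it.

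Subunits of a complex did not share a level. In siControl cells the LSM ring spanned 3.71-fold, from LSM6 at a mean density of 47.0 ± 29.2 (SD, n = 2) to LSM2 at 175 ± 15.9, and the exosome ring and cap spanned 5.19-fold, from EXOSC6 at 25.2 ± 2.80 to EXOSC4 at 131 ± 4.15. LSM6 was at 26.4 and 67.7 in the siControl libraries, so the width of the ring's range rests largely on the first of them. CCR4-NOT spanned 17.3-fold. Its lowest density was that of CNOT6, a catalytic deadenylase subunit, at 9.24 ± 0.0136, and its highest that of CNOT3, a subunit of the non-catalytic core, at 160 ± 1.61. The scaffold CNOT1 was at 13.6 ± 1.97, well below CNOT3, CNOT8 (133) and CNOT9 (99.6).

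In decapping the span was 17.5-fold, with the enzyme DCP2 lowest in siControl cells at 8.43 ± 2.88 and the helicase DDX6 highest at 147 ± 4.52. In NMD the span was 13.6-fold, from the endonuclease SMG6 at 3.82 ± 0.589 to the helicase UPF1 at 52.1 ± 1.81. Of the 5′ to 3′ exonucleases, the largely cytoplasmic XRN1 was at 12.2 ± 1.39 and the nuclear XRN2 at 52.02 ± 7.004. Of the exosome nucleases, DIS3L was at 4.13 ± 1.38, DIS3 at 10.1 ± 1.07 and EXOSC10 at 40.1 ± 0.139. The deadenylase PARN was at 31.2, above PAN2 at 9.63 and its partner PAN3 at 8.57.

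In RACK1-WT cells SMG6 was again the lowest in NMD (3.69 ± 0.214) and UPF1 the highest (51.1 ± 4.94). DDX6, CNOT3, EXOSC4 and EXOSC10 again had the highest densities of their roles, whereas in the LSM ring LSM3 had the highest (249 ± 9.70) and LSM1 the lowest (51.1 ± 5.74). DCP2 was no longer the lowest of the decapping genes, at 22.6 ± 3.01. XRN2 stood at 99.1 ± 10.4. The siRNA and RACK1 experiments used different cells and treatments, so differences between them cannot be told apart from the experiment.

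**Figure D1:**
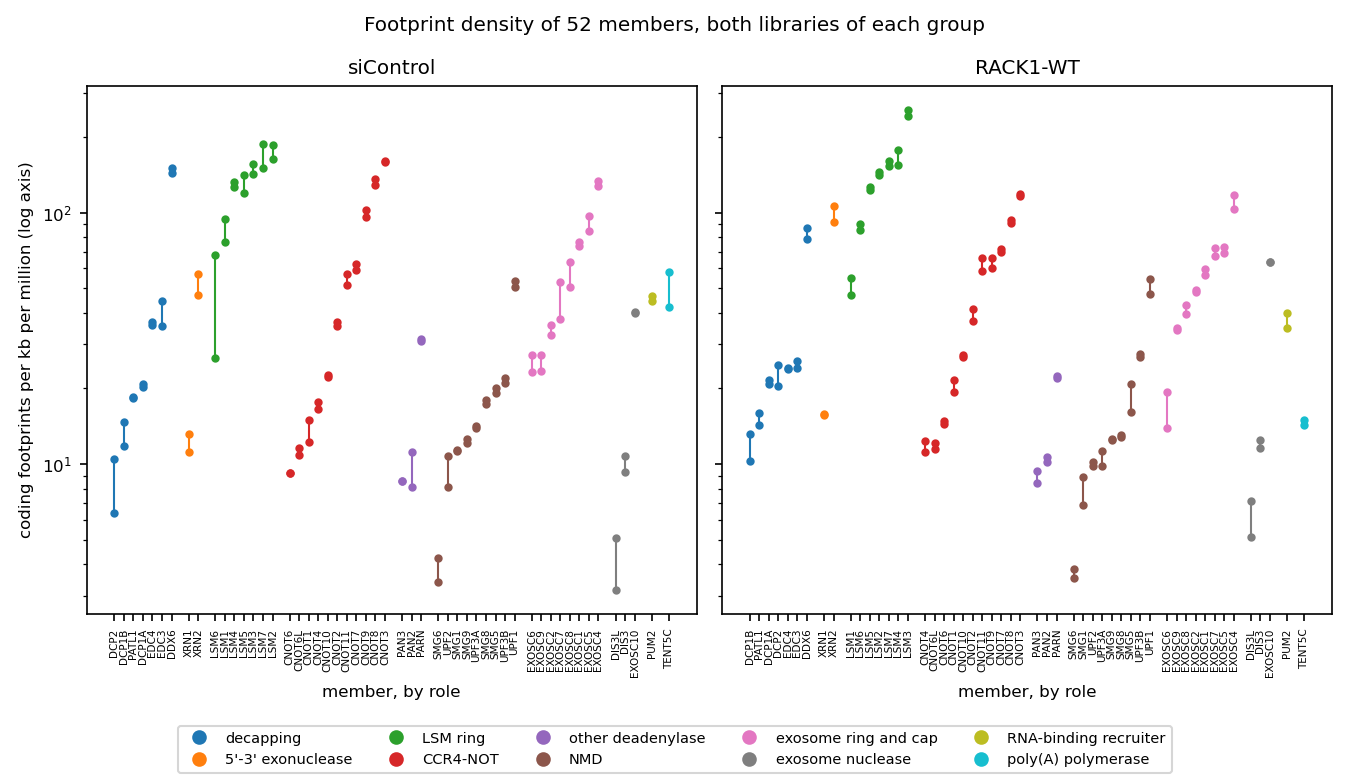
Footprint density of the 52 genes with a region of their own in siControl (left) and RACK1-WT (right) cells, as coding footprints per 1000 nt per 1000000 on a log axis. Genes are ordered by mean density within each role (colours), points are the 2 libraries and lines join them. DCP2 is the lowest decapping gene in siControl cells at 8.43 and lies at 22.6 in RACK1-WT cells.

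After TARG1 knockdown, DCP2 had the largest gain and TENT5C the largest loss of coding footprints in the group. CNOT1, CNOT9, EDC4 and UPF3A were also higher, and CNOT6 and DDX6 lower. The other 45 genes tested were not called. Because DCP2 chose the group from this very comparison, its values are given as a description, without p-values. By DESeq2 with Benjamini-Hochberg adjustment over all genes, 8 of 53 genes were called (5 higher, 3 lower), which is 15.1% against 16.4% of all 12056 genes tested (7.18% higher and 9.19% lower). The median log2 fold change was 0.06, beside 0.00 over all genes, and 35 of 53 lay within 0.3 of 0. Both siTARG1 libraries lay beyond both siControl libraries for 31 genes (58.5%, against 62.6% of all genes). The counts of called and of non-overlapping genes include DCP2 and TENT5C, which were in the group with their changes known. Nothing is read from their shares. In each of the 4 fits that left out 1 library 3 genes were called (DCP2, TENT5C and CNOT1), which for the first 2 is no sign of stability. edgeR's quasi-likelihood test called 15 genes, including all 8, which is 28.3% against 28.8% of all genes by the same test (38.8% at an unadjusted p under 0.05).

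**Figure D2:**
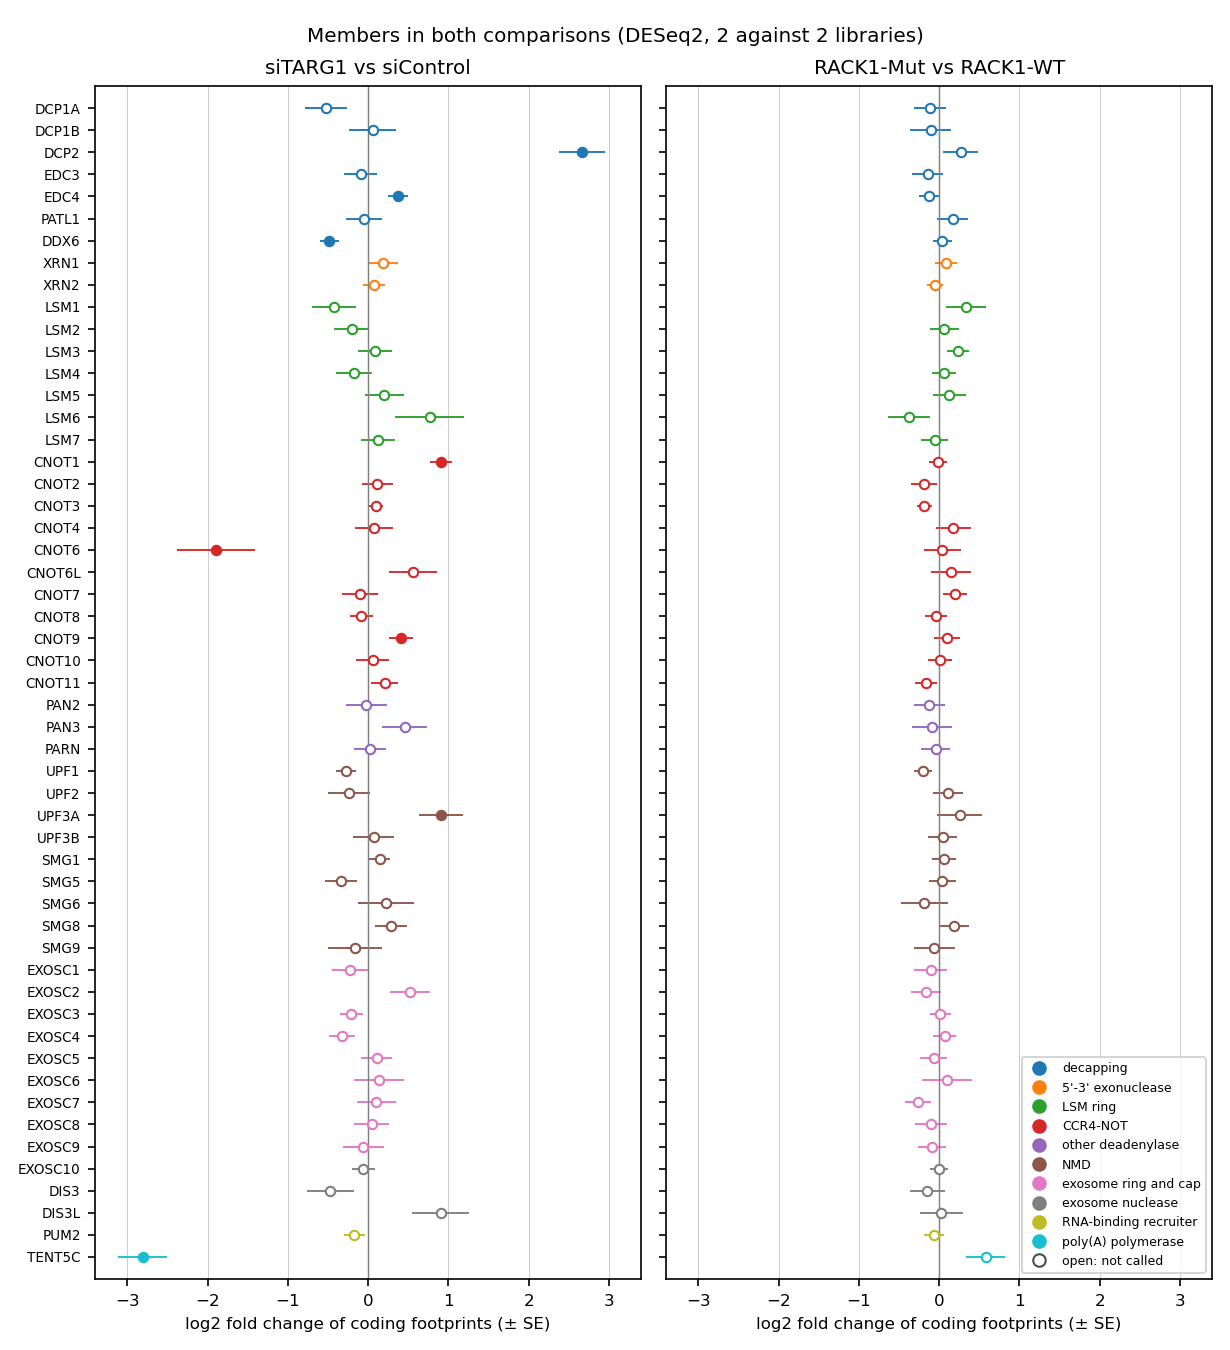
Log2 fold change of coding footprints (x axis) with its standard error (bars) for each of the 53 tested genes, for siTARG1 against siControl (left) and RACK1-Mut against RACK1-WT (right). Filled points were called by DESeq2 at an adjusted p under 0.05 and open points were not. The left panel has 8 filled points, from TENT5C at -2.81 to DCP2 at 2.67, and the right panel has none.

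Of 7 decapping genes 3 were called, beside 16.4% of all genes tested. DCP2, which chose the group, is 1 of the 3, and nothing is read from this count. DCP2 (chr5:112312399-112357892, plus strand, GRCh37), the enzyme that removes the cap, had normalised counts of 29.9 and 48.9 in siControl cells and of 226 and 265 in siTARG1 cells. Both siTARG1 libraries were far above both siControl libraries, and the fold was 6.35 (log2 2.67 ± 0.285 SE, n = 2 per group). Raw counts behind the siControl values were 34 and 41. EDC4 (chr16:67906955-67918402, plus strand), a scaffold that binds DCP2 and DCP1, had 555 and 572 in siControl cells and 708 and 751 in siTARG1 cells (1.29-fold, log2 0.37 ± 0.120).

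DDX6 (chr11:118618472-118661873, minus strand), a helicase that activates decapping and represses translation, went the other way. Its normalised counts were 774 and 808 in siControl cells and 569 and 565 in siTARG1 cells, 71.7% of the control level (log2 -0.48 ± 0.117). The groups did not overlap for any of these 3 genes, nor for 62.6% of all genes. In such bulk libraries, a change in all cells and a change in some of the cells cannot be told apart. DCP1A, the regulatory partner of DCP2, had 134 and 131 against 99.9 and 84.3 in siTARG1 cells (log2 -0.52 ± 0.266) and was not called. DCP1B, EDC3 and PATL1 lay between -0.09 and 0.06 with overlapping groups.

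Neither exonuclease was called, with XRN1 at 0.18 ± 0.188 and XRN2 at 0.07 ± 0.137 on the log2 scale and overlapping groups for both. None of the 7 LSM genes was called, and their log2 fold changes ran from -0.42 (LSM1) to 0.77 (LSM6). LSM6 had 23.7 and 60.8 normalised counts in siControl cells and 74.1 and 67.5 in siTARG1 cells, so its fold change depended on the first siControl library, and without that library it was 0.21.

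In CCR4-NOT, 3 of 11 genes were called, beside 16.4% of all genes tested. CNOT1 (chr16:58553855-58663789, minus strand), the scaffold on which the complex is built, had normalised counts of 396 and 322 in siControl cells and of 678 and 674 in siTARG1 cells (1.88-fold, log2 0.91 ± 0.141). CNOT9 (chr2:219433303-219461803, plus strand), a subunit that binds adaptor proteins, had 321 and 342 against 423 and 461 (1.33-fold, log2 0.42 ± 0.151). Both genes were higher in both siTARG1 libraries. With exon counts in place of coding counts CNOT9 was not called (log2 0.35).

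CNOT6 (chr5:179921379-180005358, plus strand), a deadenylase of the complex, was lower. It had 57.1 and 57.2 normalised counts in siControl cells and 14.2 and 16.9 in siTARG1 cells, 27.0% of the control level (log2 -1.89 ± 0.485). The siTARG1 values rest on 17 and 15 raw counts. Its paralog CNOT6L, which takes the same place in the complex, had 72.9 and 67.9 against 112 and 95.6 (log2 0.56 ± 0.301) and was not called. CNOT6 thus made up 44.2% and 46.0% of the summed density of the pair with control siRNA, and 11.3% and 15.2% with siRNA against OARD1. In the 4 RACK1 libraries it made up 51.9% to 56.5%. The other catalytic pair, CNOT7 and CNOT8, had log2 fold changes of -0.10 and -0.09. CNOT3, with the highest density of the complex, was at 0.10 ± 0.0889.

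**Figure D3:**
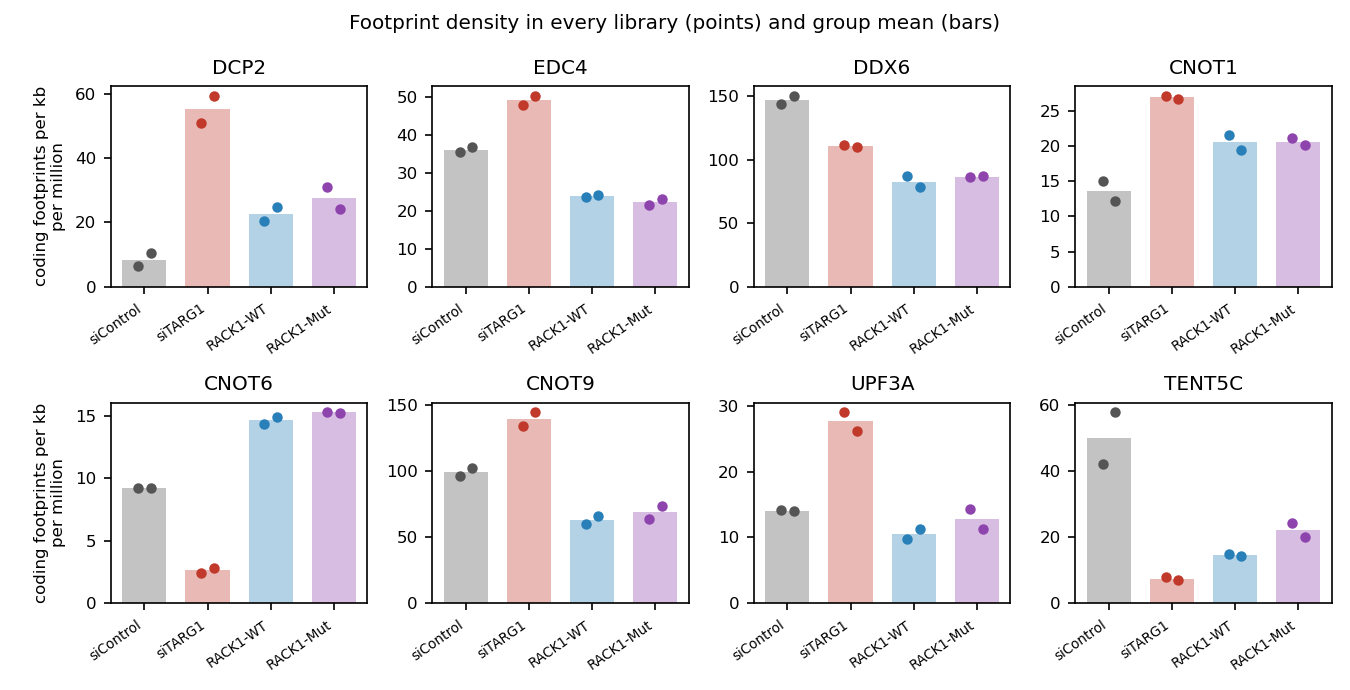
Footprint density (y axis, coding footprints per 1000 nt per 1000000, from 0) of the 8 genes called in siTARG1 cells, in all 4 groups. Points are the libraries (2 per group) and bars the group means. DCP2, EDC4, CNOT1, CNOT9 and UPF3A are higher in siTARG1 than in siControl, DDX6, CNOT6 and TENT5C are lower, the RACK1-WT and RACK1-Mut points of DCP2 overlap, and those of TENT5C do not (means 14.6 and 22.2).

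The remaining deadenylases, PAN2, PAN3 and PARN, were not called (log2 -0.02 to 0.45). In NMD, 1 of 9 genes was called, beside 16.4% of all genes tested. UPF3A (chr13:115047076-115071292, plus strand), a UPF2-binding factor and paralog of UPF3B, had 74.7 and 73.9 normalised counts in siControl cells and 146 and 133 in siTARG1 cells (1.88-fold, log2 0.91 ± 0.274). UPF3B, which links UPF2 to the exon junction complex, was at 0.07 ± 0.260 with overlapping groups. UPF3A made up 39.2% and 39.8% of the summed density of the pair in siControl cells, 52.8% and 55.2% in siTARG1 cells and 26.9% to 33.4% in the RACK1 libraries. UPF1, the helicase at the centre of NMD, had 663 and 631 against 544 and 527 (log2 -0.27 ± 0.124) and was not called.

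None of the 9 exosome ring and cap genes was called, with EXOSC3 counted by its shared region. Their log2 fold changes lay between -0.33 (EXOSC4) and 0.52 (EXOSC2). None of the 3 nuclease genes was called either. Their siControl and siTARG1 values did not overlap, which held for 62.6% of all genes too, so nothing is read from it. DIS3L, the cytoplasmic nuclease, had 59.77 and 36.95 normalised counts in siControl cells and 79.1 and 105 in siTARG1 cells (log2 0.90 ± 0.359). Its paralog DIS3 had 115 and 98.9 against 69.1 and 86.6 (log2 -0.47 ± 0.296). DIS3 made up 67.9% and 74.7% of the pair in siControl cells and 49.0% and 47.7% in siTARG1 cells, beside 57.3% to 70.8% in the RACK1 libraries. The translational repressor PUM2, the only measurable RNA-binding recruiter here, was at -0.17 ± 0.134.

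TENT5C (chr1:118148670-118171011, plus strand), a poly(A) polymerase that lengthens tails and so acts against deadenylation, had 184 and 252 normalised counts in siControl cells and 32.5 and 29.2 in siTARG1 cells. That is 14.3% of the control level (log2 -2.81 ± 0.304), with every siTARG1 value far below every siControl value. It was included in the group with this change known. In footprint density it fell from 50.05 ± 11.05 to 7.46 ± 0.602, while the RACK1-WT libraries were at 14.6 ± 0.433.

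**Figure D4:**
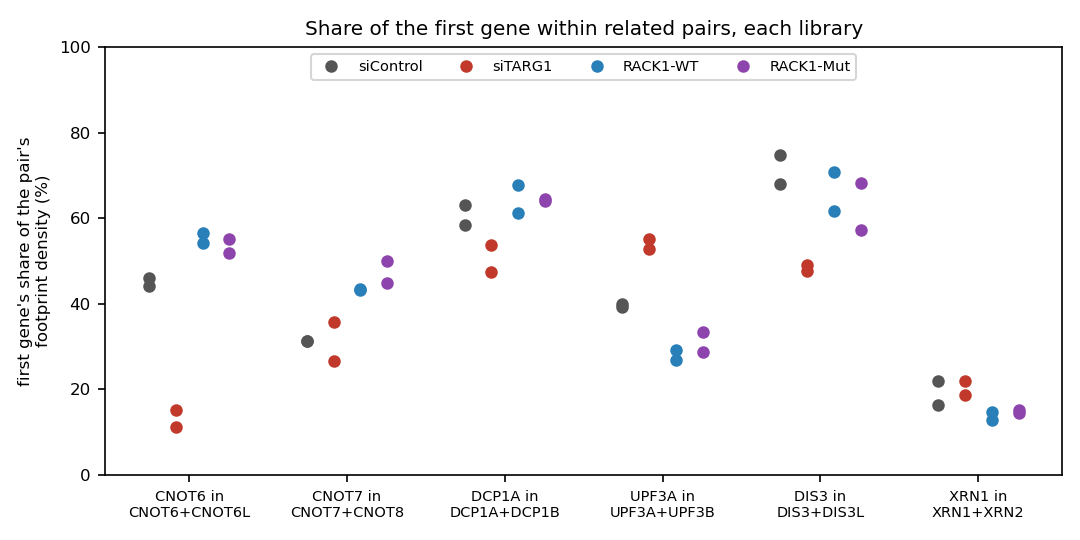
Share (y axis, percent) of the first gene in the summed footprint density of 6 pairs of related genes. Each point is 1 library, coloured by group. CNOT6 drops to 11.3% and 15.2% of its pair in siTARG1 cells and UPF3A rises to 52.8% and 55.2%. DIS3 is at 49.0% and 47.7% in siTARG1, below its siControl points (67.9% and 74.7%). DCP1A is at 53.6% and 47.5%, below 58.5% and 63.2% in siControl. The siTARG1 points of CNOT7 and XRN1 overlap in range with the siControl points.

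An siRNA can also lower mRNAs other than its target through short matches to its seed in their 3′ UTRs, so the 3′ UTRs of the called genes were searched for a pair of short words. The words TGAACATA and TGAATATA were known from an earlier examination of the same libraries, so their presence is a description and no independent evidence. A 3′ UTR was counted when it held either 7-letter part of a word on the mRNA strand (TGAACAT or GAACATA, and TGAATAT or GAATATA, which overlap within the word). Parts of TGAACATA were found in 19.7% of 11864 tested genes with an annotated 3′ UTR, in 38.6% of the genes called lower in siTARG1 cells, 15.1% of those called higher and 18.0% of the rest. Parts of TGAATATA were found in 26.1% of all, 25.7% of the lower, 49.0% of the higher and 24.2% of the uncalled genes. Median 3′ UTR lengths also differed, at 1531 nt for the lower, 1840 nt for the higher and 1292 nt for the uncalled genes. The shares were not adjusted for length.

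Among 52 of the decay genes, 11 (21.2%) held a part of TGAACATA and 14 (26.9%) a part of TGAATATA. All 3 genes called lower (CNOT6, DDX6 and TENT5C) held the former, and 6 of 44 uncalled genes did. CNOT6 and DDX6 held a part of TGAATATA too. Of the 5 called higher, DCP2 and CNOT9 each had 1 part of TGAACATA, DCP2 and CNOT1 had parts of TGAATATA, and EDC4 and UPF3A had neither. The 3 lower genes had long 3′ UTRs, with a median of 4345 nt beside 1176 nt for the uncalled genes, and longer sequences hold more short words. The siRNA sequences were not used here, so the part of such matches in the changes was not tested. For each called gene with a match, the first site of each word is shown with its GRCh37 position, read 5′ to 3′ on the mRNA strand, with the matched letters in capitals and 10 flanking bases on each side. The genes called lower come first.
CNOT6, chr5:180001242-180001269, plus strand: tgtgaaaatcTGAACATAggggagtgag
CNOT6, chr5:180002282-180002308, plus strand: tgtgaagcatTGAATATcacattttgg
TENT5C, chr1:118167391-118167417, plus strand: ataaaatgtgGAACATAatgtttaatt
DDX6, chr11:118622580-118622606, minus strand: gtgtgctgacTGAACATtagttgcact
DDX6, chr11:118622623-118622649, minus strand: tgaaaagaagGAATATAccttttttgt
DCP2, chr5:112356750-112356776, plus strand: aagtatgagaTGAACATgataaaagta
DCP2, chr5:112349738-112349764, plus strand: gcagcttctgGAATATAatgtgcatgt
CNOT1, chr16:58554624-58554650, minus strand: gaagatgctgTGAATATcattttgaac
CNOT9, chr2:219461307-219461333, plus strand: ggttcttttgTGAACATgttttttggg

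The first CNOT6 site holds all 8 letters of TGAACATA and begins 55 nt into a 3′ UTR of 4161 nt. DCP2, whose 3′ UTR is annotated at 8714 nt, had 7 sites with parts of TGAATATA, the first at 570 nt, and 1 with a part of TGAACATA at 7582 nt. CNOT1 had 3 sites with parts of TGAATATA in a 3′ UTR of 1010 nt. In DDX6 the sites of both words lie close together, at 221 nt (TGAACATA) and 178 nt (TGAATATA).

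A wider set of 78 partner genes of the same pathways, written from their known roles, was read from the same fit. Of 74 tested, 18 were called in siTARG1 cells (24.3%, against 16.4% of all genes), 10 higher and 8 lower. The 74 include 3 genes (TUT1, RBM7 and STAU2) whose region is shared with other genes. Counts of these 3 regions cannot be assigned to the named gene alone. Among decapping partners, LSM14B, an RNA-binding relative of the P-body protein LSM14A, had 461 and 402 normalised counts in siControl cells and 187 and 219 in siTARG1 cells (log2 -1.09 ± 0.172). LSM14A itself was called higher (log2 0.33 ± 0.111). Among deadenylation partners, the poly(A)-binding protein PABPC4 rose 1.87-fold (log2 0.90 ± 0.147), while TOB2, an adaptor that brings CCR4-NOT to poly(A)-binding protein, fell by 0.86 ± 0.173 on the log2 scale. PABPC1, a paralog of PABPC4, was called lower instead (log2 -0.34 ± 0.0944).

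Of the NMD and exon junction partners, RBM8A, a core subunit of the exon junction complex, rose 1.68-fold (log2 0.75 ± 0.157). STAU1, which binds double-stranded RNA and can recruit UPF1, fell from 948 and 896 normalised counts to 440 and 485. TENT4B, a poly(A) polymerase that tags nuclear RNA for the exosome, rose 2.95-fold, from 43.1 and 38.1 to 108 and 133 (log2 1.56 ± 0.328). Among RNA-binding recruiters, RC3H2 (Roquin-2) was lower (log2 -1.14 ± 0.376) and GIGYF1, a partner of the cap-binding repressor 4EHP, was higher (log2 1.05 ± 0.238). Groups did not overlap for any of the 8 partner genes named for their large changes, nor for 62.6% of all genes.

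The rule that chose the group used the siRNA libraries, so the RACK1 comparison was tested, although earlier results of its libraries were known as well. No decay gene was called in RACK1-Mut against RACK1-WT cells, where 10 of all 12520 genes were called by DESeq2 (0.0799%). At an unadjusted p under 0.05, 2 of 53 decay genes passed, and 1.64% of all genes did. edgeR called none of the 53 either, and 0.24% of all genes. At an unadjusted p under 0.05 by edgeR 7 passed (13.2%), against 7.48% of all genes. The median log2 fold change was 0.00, with 27 genes above 0 and 26 below, and 50 of 53 genes lay within 0.3 of 0. The range ran from -0.37 (LSM6) to 0.58 (TENT5C). Groups did not overlap for 25 genes (47.2%, against 37.6% of all genes, of which 18.7% were higher and 18.9% lower in RACK1-Mut cells). None of the 74 tested partner genes was called.

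The 5 genes of smallest unadjusted p were TENT5C, CNOT3, UPF1, LSM3 and EXOSC7. The smallest belonged to TENT5C, with 89.7 and 85.0 normalised counts in RACK1-WT cells and 142 and 119 in RACK1-Mut cells. Both mutant libraries were above both wild-type libraries (1.49-fold, log2 0.58 ± 0.248, DESeq2 adjusted p = 1.00). CNOT3 had 1340 and 1356 in RACK1-WT cells and 1134 and 1241 in RACK1-Mut cells (log2 -0.18 ± 0.0932, DESeq2 adjusted p = 1.00). UPF1 had 816 and 925 against 723 and 788 (log2 -0.20 ± 0.112, DESeq2 adjusted p = 1.00). These differences did not pass the threshold after adjustment over all genes.

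LSM3, a subunit of the ring, had 382 and 399 normalised counts in RACK1-WT cells and 474 and 446 in RACK1-Mut cells (log2 0.24 ± 0.134, DESeq2 adjusted p = 1.00). EXOSC7, of the exosome ring, had 301 and 319 against 264 and 254 (log2 -0.26 ± 0.159, DESeq2 adjusted p = 1.00). DCP2 had 132 and 158 in RACK1-WT cells and 196 and 153 in RACK1-Mut cells, and the groups overlapped (log2 0.27 ± 0.216, DESeq2 adjusted p = 1.00). Apart from DCP2 and TENT5C, the genes called in siTARG1 cells were between -0.12 (EDC4) and 0.26 (UPF3A) in this comparison, with CNOT1 at -0.02 ± 0.113, CNOT6 at 0.04 ± 0.227, DDX6 at 0.04 ± 0.119 and CNOT9 at 0.10 ± 0.159. The sizes seen for DCP2, CNOT6 and TENT5C after TARG1 knockdown thus had no counterpart of that size between RACK1-Mut and RACK1-WT cells. Whether the changes differ between the experiments was not tested.

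Footprints outside the coding sequence were few on most of these mRNAs. The median share in the 5′ UTR was 1.19% in siControl, 1.03% in siTARG1, 0.911% in RACK1-WT and 1.03% in RACK1-Mut cells, beside 1.41%, 1.30%, 1.52% and 1.40% over all genes. The mRNAs of LSM1, CNOT7 and CNOT6 had much larger shares in every group. Such shares are not particular to these genes. A mean share over 20% was found in 0 or 1 of 52 decay genes per group, beside 4.05% to 4.42% of all genes. LSM1 had 13.3% and 11.6% of its footprints in the 5′ UTR in siControl cells, 17.4% and 24.6% in siTARG1 cells, 23.5% and 23.7% in RACK1-WT cells and 19.8% and 12.7% in RACK1-Mut cells. CNOT7 had 16.6% and 25.0%, 16.0% and 12.7%, 17.3% and 18.3%, and 19.4% and 14.7% in the same order. No test was run on these shares, and no order of the groups is read from them. CNOT6 averaged 19.5%, 16.7%, 15.6% and 12.4%, and the siTARG1 value rests on 4 and 3 footprints. In the 3′ UTR the medians were 0.259%, 0.176%, 0.218% and 0.303% in the same order of groups, beside 0.105%, 0.120%, 0.194% and 0.129% over all genes. LSM1 had between 4.70% and 9.92% of its footprints there in single libraries.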

How the data were processed

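Footprints were prepared by the authors from RNase I-treated lysates. Reads were aligned by the authors with TopHat2 2.1.1 after Bowtie 1.1.2 filtering, with many hits per read allowed, so counts of genes with near-identical copies or pseudogenes are uncertain. The deposited values are whole-number counts made with Plastid per the file headers (reads of 26 to 36 nt, hg19, GENCODE 24). The headers place a read 14 nt from its 5′ end and the methods count from the 3′ end, which was not resolved. Whether unique molecular identifiers were collapsed is not stated. The authors' deposited RPKM was used only to work back to alignments per library, and exon counts made up 27.8% to 57.2% of them.

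Symbols came from GENCODE 44 lifted to GRCh37 (19612 of 20165 regions, 97.3%). RNA-seq was not analysed here, so values are footprint abundance, not translation efficiency. The main test, named in the study's methods, was DESeq2 1.42.0 (R 4.3.3) on coding counts of the 4 libraries of a comparison, for genes with at least 10 counts in all, called at an adjusted p under 0.05. Normalised counts are counts divided by DESeq2 size factors. Alternatives were edgeR 4.0.16 with TMM, TMM factors in DESeq2, other count filters, exon counts, all 8 libraries in 1 fit, a replicate block and leaving out each library. The fits were tried on simulated counts with the same dispersion for every gene and large planted changes in well-covered genes. Rare genes and small changes were not covered by that trial.

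Members, lists and tests were chosen with earlier results of these data known. Genes named with values are DCP2, TENT5C, the 5 members of smallest p in the RACK1 comparison, all members called in siTARG1 cells, the extremes of density in each role, and the 8 partner genes called with the largest changes and a mean count of at least 50. Other members, and the partner genes PABPC1 and LSM14A, were named after their values were seen.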

Additional observations from a re-analysis of the deposited data

How the results depend on the processing

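Of 53 decay genes, 8 were called in siTARG1 cells by DESeq2, 15 by edgeR (9 higher, 6 lower, including all 8) and 5 with the replicate block, while 16.4%, 28.8% and 9.33% of all genes were called in these fits. The 8 include DCP2 and TENT5C, whose changes were known beforehand. With TMM factors in DESeq2, other count filters, exon counts or all 8 libraries in 1 fit, 13.4% to 21.2% of all genes were called. The highest share, 21.2%, came from the fit of all 8 libraries, which also called the most decay genes (10). No stability of the group is read from the counts in these 5 fits. In every fit that left out 1 library 3 were called (4.79% to 6.26% of all genes), and under the other 5 alternatives 7 to 10. The 18 partner genes called became 10 with the block, 25 with edgeR, and 5 to 8 when 1 library was left out, so these counts moved in fits in which the share of all genes called moved too. The block is an alternative only, since replicate numbers were not shown to pair the libraries (correlation of their deviations 0.0829 in the RACK1 and 0.0306 in the siRNA experiment). EDC4, CNOT9 and UPF3A were not called with it. edgeR also called DIS3L, CNOT6L, LSM6, UPF1, DCP1A, EXOSC2 and EXOSC4. A fit without 1 library assumes that the lone library varies like the other group.

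No decay gene and no partner gene was called in the RACK1 comparison under any alternative run, and a fit of all 8 libraries gave no adjusted p for 52 of the 53 members. The median log2 fold change there ranged from -0.0461 to 0.00306 when 1 library was left out, and in siTARG1 cells from 0.00551 to 0.0875. A few uncalled RACK1 values near 0 changed sign. CNOT1 was 0.00428 and CNOT6 -0.0401 with exon counts. Leaving out 1 library at a time gave -0.0961 to 0.0720 for CNOT1, -0.0383 to 0.127 for DDX6 and -0.00476 to 0.202 for CNOT9 (above 0 for CNOT1 without RACK1-WT replicate 1 or RACK1-Mut replicate 2, below 0 for DDX6 without RACK1-WT replicate 2 and for CNOT9 without RACK1-Mut replicate 2). The causes were not tested.

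The median footprint density over all 8 libraries was 30.7. With exon footprints over exon length it was 15.5, since untranslated regions add length and few footprints, and in single groups it was 35.1 (siControl), 40.0 (siTARG1), 27.0 (RACK1-WT) and 28.0 (RACK1-Mut). With 2 libraries per group, and 15 to 41 raw counts behind the low values of CNOT6 and DCP2, folds of the rarer genes are imprecise.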
